A study of Caenorhabditis elegans with 60 samples.

Results

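The region described here is the centre of chromosome V of the nematode Caenorhabditis elegans, the low-recombination middle of the chromosome between its arms. It was taken as every 500 bp window of a genome-wide count table on V that starts above position 5897000 and ends at or below 16550000 of the ce10 build, a choice made on position alone. It holds 21305 of the 200579 windows of the table (10.6%), runs from 5897451 to 16549904 and covers 10.65 Mb, or 50.9% of V. Of these windows, 19811 (93%) were covered evenly by the input libraries, with genotype means of the input within 1.5 times of each other, and these were used for all levels and tests unless stated.

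H3K9me3 is histone H3 carrying 3 methyl groups on lysine 9, a mark of silent chromatin that in this worm is laid down in embryos by the methyltransferase SET-25. MET-2, the worm homologue of SETDB1, supplies the lower methylation states of the same lysine. NRDE-3 is an Argonaute protein that carries small RNAs into the nucleus of somatic cells, and LIN-61 is a protein with MBT domains that binds methylated lysine 9. On worm autosomes the mark is known to be dense on the arms, which hold many repeats and lie at the nuclear envelope, and sparse in the gene-rich centres. The title of the series poses the question of separate routes, through NRDE-3 and through LIN-61, by which the enzyme reaches its targets.

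Early embryos, collected before the bean stage, came from 5 genotypes: the wild type N2 (Bristol), nrde-3(tm1116), lin-61(tm2649), the double mutant of met-2(n4256) with nrde-3(tm1116), and the double mutant of met-2(n4256) with lin-61(tm2649). The met-2 mutation was not measured alone, so it was always seen on top of one of the other mutations. Each chromatin preparation gave an input and an H3K9me3 library, and 28 libraries from 14 preparations were used: 2 of N2 and 3 of each other genotype. Whole embryos were used, so a change in all cells and a change in some cells cannot be told apart. The genotypes with lin-61 were prepared in 1 library series and the other 3 in another, so effects of the series and of the lin-61 background cannot be told apart.

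Totals per library were 47874152 to 62101882 counts for inputs and 45137188 to 65845682 for H3K9me3 in the series with N2, and 39698732 to 53498742 and 22265768 to 43856170 in the lin-61 series. The median window of the region held 206 to 290 counts in inputs and 112 to 251 in H3K9me3 libraries. N2 replicate 1 was left out because its libraries go against their labels. At the N2 islands described below, the library labelled N2 input 1 stood at 3.21 times the region's median window, where other inputs ranged from 0.882 to 0.96, and the library labelled N2 H3K9me3 1 stood at 1.04, against 1.5 to 5.43. The inputs labelled nrde-3 and met-2 nrde-3 also go against their labels. At III 8377067 to 8377566, on the chromosome of the met-2 allele, the libraries labelled nrde-3 input held 0 to 0.00478 of the depth of the median library and those labelled met-2 nrde-3 input 1.11 to 1.19. The H3K9me3 libraries of met-2 nrde-3 were empty there as labelled, at 0 to 0.00972, and those of nrde-3 were not, at 1 to 1.86. No window of the centre of V was under 0.25 of the usual depth in either input, and a test with the mean input of the library series is given beside the counts it moves by over 1.5 times. The labels also name an antibody against LEM-2 in the protocol and H3K9me3 in the titles. The titles were followed.

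Levels are given as the log2 ratio of H3K9me3 over input, on counts scaled between libraries by TMM with a pseudocount of 8 counts. A ratio of 0 is the level typical of the genome's windows, not an absence of signal. Gains and losses given below are thus relative to the other windows, and the total amount of the mark was not measured. Over the whole centre of V the ratio was -0.029 and -0.042 in the N2 preparations, with a mean of -0.04 ± 0.01 (SD, n = 2). It was 0.01 ± 0.01 in nrde-3 and -0.05 ± 0.02 in lin-61 (n = 3 each). Both single mutants thus stood within 0.05 of N2. The nrde-3 preparations all lay above those of N2 (exact two-sided permutation p = 0.2, the smallest possible). Those of lin-61 overlapped with N2 (exact two-sided permutation p = 0.4). In met-2 nrde-3 the preparations stood at 0.325, 0.315 and 0.424 (mean 0.35 ± 0.06) and in lin-61 met-2 at 0.226, 0.23 and 0.278 (0.24 ± 0.03). All 6 double mutant preparations lay above all 8 of the other genotypes. Relative to its single mutant, met-2 nrde-3 stood 0.34 higher and lin-61 met-2 0.30 higher. Each gave p = 0.1 in an exact two-sided permutation test, the smallest value that 3 against 3 allows (0.24 after Benjamini-Hochberg adjustment over 6 comparisons). Against N2 they were 0.39 and 0.28, each with an exact p = 0.2, the smallest that 3 against 2 allows.

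**Figure D1:**
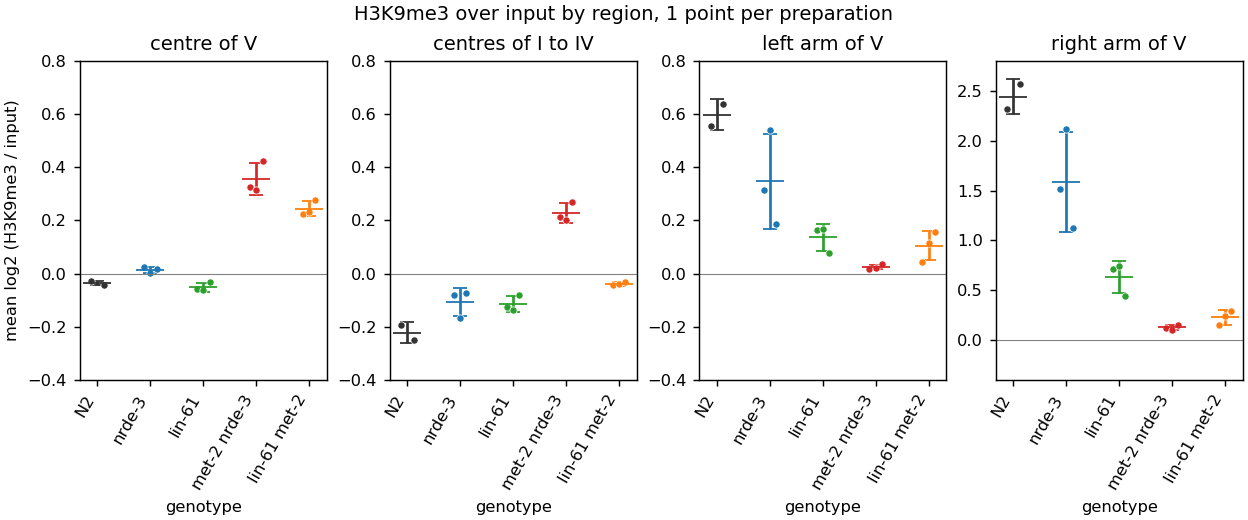
Mean log2 ratio of H3K9me3 over input for the centre of V, the centres of I to IV and the arms of V; each point is a preparation, the line the mean and the bar the SD, and the panel of the right arm has a wider axis. In the centre of V the double mutants lie at 0.315 to 0.424 and 0.226 to 0.278, above every other preparation, while on the arms of V N2 has the highest mean.

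On the flanking arms N2 had the highest mean and met-2 nrde-3, the highest in the centre of V, had the lowest. On the right arm of V the mean was 2.44 ± 0.17 in N2 and 0.13 ± 0.03 in met-2 nrde-3. The left arm stood at 0.60 ± 0.06 in N2 and 0.03 ± 0.01 in met-2 nrde-3. The whole centre of V had the highest ratio of the autosome centres in 14 of 14 preparations, in N2 through its right end. Its excess over the centres of I to IV was 0.19 ± 0.03 in N2, 0.12 ± 0.04 in nrde-3, 0.06 ± 0.02 in lin-61, 0.13 ± 0.02 in met-2 nrde-3, with 0.28 ± 0.02 in lin-61 met-2. The excess differed by 0.22 between lin-61 met-2 and lin-61, with no overlap of preparations (exact two-sided permutation p = 0.1, the smallest possible, adjusted 0.3). In met-2 nrde-3 the excess was 0.01 above that in nrde-3, and the preparations overlapped (exact p = 0.8).

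The region was not uniform along its length. Its first 9.4 Mb carried little H3K9me3 in N2, and its last 1.25 Mb, from 15297411 on, rose toward the level of the adjoining arm. This division was drawn after the profile in bins of 200 kb was seen, at the first bin with an N2 ratio of at least 0.5. The values on either side are a description. Drawn on N2, the division favours mutant values below N2 after it and above N2 before it. N2 stood at -0.16 ± 0.03 before it and 0.95 ± 0.12 after it. nrde-3 stood at -0.05 ± 0.04 and 0.54 ± 0.25, and lin-61 at -0.09 ± 0.03 and 0.26 ± 0.06. The profile of met-2 nrde-3 had the opposite slope, with 0.37 ± 0.06 before and 0.21 ± 0.03 after, and lin-61 met-2 had 0.23 ± 0.03 and 0.38 ± 0.06. Before the division N2 lay below the centre of IV (-0.11 ± 0.03), so the first rank of V in N2 rested on the last 1.25 Mb. N2 stayed above the mean of the centres of I to IV (-0.22 ± 0.04). The single mutants were level there with their highest other centre (IV at -0.05 ± 0.04 in nrde-3, II at -0.09 ± 0.04 in lin-61). Both double mutants had a mean above theirs, II (0.33 ± 0.05 and 0.05 ± 0.01). In the first 47 bins met-2 nrde-3 exceeded N2 in 45 and lin-61 met-2 in 46. In each of the last 7 bins all 4 mutants stood below N2.

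At the bounds set by the rule, the 200 kb just inside the left bound stood at -0.19 ± 0.04 in N2 and the 200 kb just outside it at -0.21 ± 0.01. At the right bound the same stretches stood at 1.32 ± 0.14 inside and 1.88 ± 0.18 outside. In N2 the levels on either side thus differed by less than their spread at the left bound and by more at the right. In met-2 nrde-3 the level at the left bound was 0.23 ± 0.04 outside and 0.05 ± 0.02 inside, and in lin-61 met-2 0.17 ± 0.03 and 0.06 ± 0.03. Neighbouring 200 kb bins inside the region differed by more. The first and second bins stood at 0.05 and 1.54 in met-2 nrde-3 and at 0.06 and 0.79 in lin-61 met-2. In met-2 nrde-3 the values around the right bound were 0.22 ± 0.04 inside and 0.18 ± 0.05 outside.

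**Figure D2:**
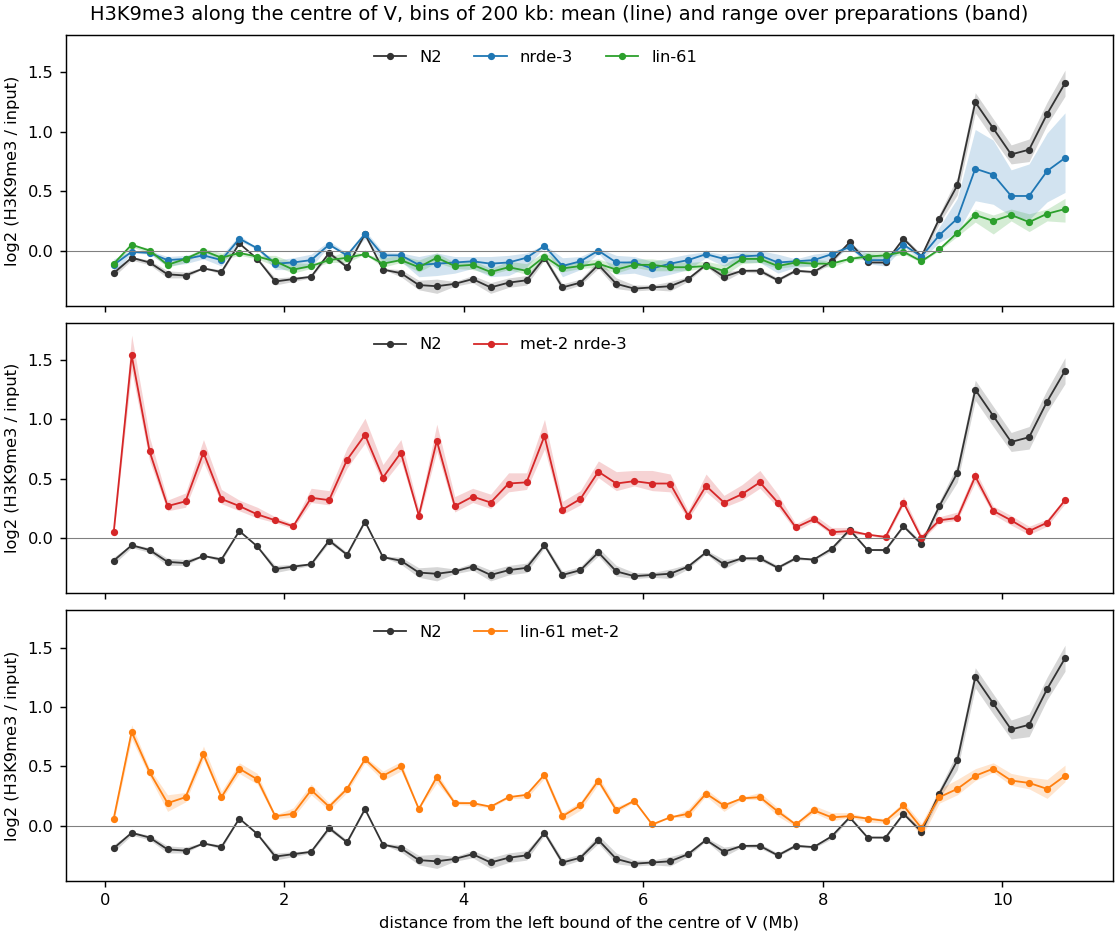
Mean log2 ratio of H3K9me3 over input in 54 bins of 200 kb along the centre of V, as distance from its left bound; lines are means and bands the range over preparations, with N2 repeated in each panel. N2 climbs over the last 1.25 Mb to 1.41, and met-2 nrde-3 peaks at 1.54 in the second bin.

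The share of the region that carried the mark was counted as windows with a genotype mean of at least 1, a ratio of at least 2-fold. In N2 there were 1019 such windows (5.14%), while nrde-3 had 436 (2.2%) and lin-61 had 234 (1.18%). The double mutant met-2 nrde-3 had 2450 (12.4%) and lin-61 met-2 had 1559 (7.87%). Single preparations held 904 and 1176 in N2, 253 to 841 in nrde-3, 215 to 325 in lin-61, 2130 to 3029 in met-2 nrde-3 and 1412 to 2156 in lin-61 met-2. Every double mutant preparation thus held more marked windows than any other preparation. Of all marked windows of the genome, the centre of V held 3.27% in N2 and 20.9% in met-2 nrde-3. It held 19811 of the 184418 evenly covered windows of the genome. The other centres also had more marked windows in met-2 nrde-3 than in N2. As means of single preparations, the centres of I to IV had 2.24% in N2 and 9.42% in met-2 nrde-3. The centre of V had 5.25% and 12.7% on that measure. In lin-61 met-2 these shares were 3.69% and 9.17%.

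Marked windows lay in blocks. Joined into runs of at least 3, they gave 110 domains in N2, 35 in nrde-3, 21 in lin-61, 225 in met-2 nrde-3 and 171 for lin-61 met-2, with medians of 2.5 to 3.5 kb. The longest N2 domain, 30.5 kb from 16412406, lay near the right bound. The longest of met-2 nrde-3 measured 37 kb from 10822430, in the middle of the region, and the longest of lin-61 met-2 21.5 kb from 6139450. The position of the mark differed between N2 and met-2 nrde-3, not its level alone. Across the 19811 windows their preparations correlated at r = 0.23 to 0.24, against 0.86 within N2 and 0.92 to 0.93 within met-2 nrde-3. Those of N2 and nrde-3 correlated at 0.67 to 0.85, where nrde-3 preparations reached 0.56 to 0.71 among themselves. Between the double mutants r was 0.62 to 0.73, against 0.65 to 0.76 within lin-61 met-2. These correlations describe windows, which share libraries and depth within a preparation and are not independent.

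The islands of N2 were runs of at least 3 windows at 1 or more in both N2 preparations. There were 88, with a median length of 2.5 kb and 728 windows in all, of which 22 lay in the first 9.4 Mb and 66 in the last 1.25 Mb. They were chosen on N2, so lower values elsewhere are partly set by that choice and no test is given. Their mean was 2.08 ± 0.15 in N2, 1.30 ± 0.52 in nrde-3, 0.72 ± 0.10 in lin-61, 1.01 ± 0.13 in met-2 nrde-3, with 0.99 ± 0.07 in lin-61 met-2. A level of 1 or more was kept by 37 islands in nrde-3, 8 in lin-61, 25 in met-2 nrde-3, with 27 in lin-61 met-2. All 8 of the islands kept in lin-61 were also kept in nrde-3. Below 0.5 stood 2, 22, 46 and 28 islands in the same order.

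In met-2 nrde-3 island levels differed along the region, where 14 of the 22 islands of the first 9.4 Mb stood at 1 or more, with a median of 1.35, against 11 of the 66 islands of the last 1.25 Mb, with a median of 0.34. In lin-61 met-2 the medians were 0.80 and 0.68, with 8 of 22 and 19 of 66 islands at 1 or more. In nrde-3 the medians were alike, at 0.96 and 0.92. Some islands were higher in met-2 nrde-3 than in N2, namely 11 of 88, and none of the 88 was higher in nrde-3 or lin-61. At V 10572431 to 10574930 the mean was 1.64 in N2, 0.92 in nrde-3, 0.52 in lin-61, 3.77 in met-2 nrde-3, with 2.68 in lin-61 met-2. The island of 11000 bp at V 10717930 to 10728929 had 2.15 in N2 and 3.60 in met-2 nrde-3.

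The strongest island, V 14760913 to 14765912, kept the mark in every genotype. Its ratio was 3.94 and 4.01 in N2. In nrde-3 it was 2.64, 3.78 and 2.23, and in lin-61 1.78, 1.90 and 1.49. The double mutants stood at 3.59, 3.17 and 3.90 (met-2 nrde-3) and at 2.75, 2.35 and 2.84 (lin-61 met-2). The lin-61 preparations were the lowest and did not overlap with those of any other genotype, yet stayed above 1. At 6 islands all 5 genotypes had a mean of at least 1, among them V 8479440 to 8485439, where met-2 nrde-3 reached 4.01 ± 0.40 against 3.66 ± 0.16 in N2. At the longest island, V 16412406 to 16442905, the level was 2.50 ± 0.22 in N2, 1.64 ± 0.62 in nrde-3, 0.79 ± 0.10 in lin-61, 0.60 ± 0.10 in met-2 nrde-3, with 0.92 ± 0.07 in lin-61 met-2.

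**Figure D3:**
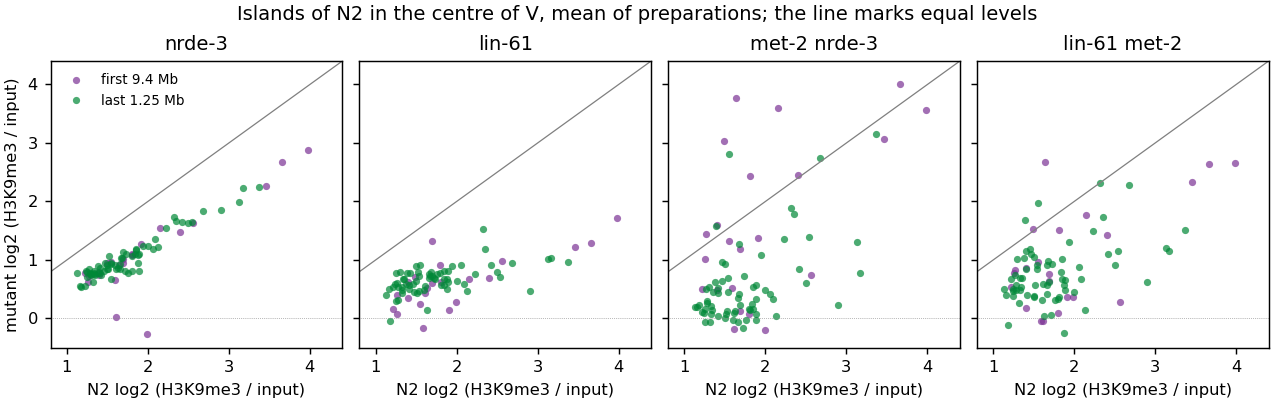
Mean log2 ratio at the 88 islands of N2, each mutant (vertical axis) against N2 (horizontal axis); colours separate the first 9.4 Mb of the region from the last 1.25 Mb. In nrde-3 most islands lie along a band below the line of equal levels, with 2 near or under 0, while in met-2 nrde-3 they spread from -0.19 to 4.01.

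Loss of the Argonaute was examined by setting nrde-3 against N2. At 2 short domains the mark went from clear enrichment to the background level, and the other islands kept some of it at lower ratios. At V 6039950 to 6043949 the ratio was 1.66 and 2.00 in N2 and -0.23, -0.41 and -0.13 in nrde-3. The groups lay far apart, with a mean window change of -2.13 (edgeR quasi-likelihood test, median adjusted p = 4.56e-05). The scaled H3K9me3 count per window there was 712 and 780 in N2 and 158 to 186 in nrde-3, at inputs of 181 to 218. This domain was also low in lin-61 (0.22, 0.44 and 0.07), in met-2 nrde-3 (-0.06, -0.34 and -0.15) and in lin-61 met-2 (0.33, 0.46 and 0.01). At V 13646418 to 13649417 the ratio was 1.44 and 1.69 in N2 and -0.18, -0.10 and 0.02 in nrde-3 (change -1.68, adjusted p = 9.12e-05, edgeR). Those 2 places hold the 2 islands that were under 0.5 in every mutant.

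In the region edgeR called 138 windows lower in nrde-3 (0.697%), where 5.16% of all windows tested were called lower, and 37 higher (0.187%), against 0.113% of all windows. In either direction these were 175 windows of the region, and 5.28% of all windows tested. The lower windows joined into 9 loci, which are runs of at least 3 called windows whose values are means over the called windows, with changes from -2.13 to -0.80, of which 7 lay beyond 15297411. The 37 higher windows formed no locus of 3 called windows. The SD of the ratio over windows was 0.545 and 0.622 in N2 and 0.365, 0.519 and 0.28 in nrde-3, so the nrde-3 preparations were flatter to differing degrees. With every preparation scaled to the same SD, limma called 7 windows, all of them lower, and the loci at 6039950, 13646418 and 16535905 did not pass. Leaving out single preparations gave 59 and 9 calls without N2 replicate 2 or 3, 20, 1251 and 20 without nrde-3 replicate 1, 2 or 3, and 97 to 106 without a met-2 nrde-3 preparation. Without lin-61 met-2 replicate 1 there were 324. The next locus by size, V 16535905 to 16538404, had 2.59 and 2.92 in N2 and 1.09, 2.15 and 0.93 in nrde-3 (change -1.32, adjusted p = 0.0189, edgeR). It did not pass without either N2 preparation or without nrde-3 replicate 1 or 3, while both domains described above passed in each of these fits. With the mean input of the library series there were 1568 calls, 1228 of them lower. With library totals in place of TMM factors the median of all windows moved from -0.02 to 0.45 and the split of calls from 21.1% to 99.2% higher.

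Loss of the MBT-domain protein was examined by setting lin-61 against N2, which crosses the library series. All 88 islands had a lower mean in lin-61 than in N2. Their choice on N2 favours lower values elsewhere, and none was higher than N2 in nrde-3 either. Windows called lower made up 3.37% of the first 9.4 Mb and 47.8% of the last 1.25 Mb, and windows called higher 7.8% and 0.567%. The division between these stretches was drawn on N2, so this contrast is partly set by that choice. At V 15588909 to 15596408 the ratio was 2.75 and 3.04 in N2 and 0.67, 0.46 and 0.27 in lin-61 (change -2.46, median adjusted p = 2.11e-06, edgeR). The ratio in nrde-3 was 1.74, 2.59 and 1.23, between N2 and lin-61. The next losses were at islands that kept part of the mark. V 8479440 to 8485439 had 3.54 and 3.77 in N2 and 1.35, 1.38 and 1.14 in lin-61 (change -2.38, adjusted p = 4.55e-05, edgeR), and the strongest island, V 14760913 to 14765912, changed by -2.26 (adjusted p = 9.61e-05, edgeR). Close to these 3 losses lay runs with thin lin-61 inputs, from 15586409, 8486940 and 14766413, at 0.0134, 0.00909 and 0.0634 of the usual depth. Inside the losses inputs were even, for example 199 and 194 in N2 and 207 to 210 in lin-61 at the first. Whether the thin runs bear on the losses was not tested.

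Gains in lin-61 were smaller. The largest gain was at V 10019433 to 10022932, from -0.42 and -0.61 in N2 to 0.69, 0.68 and 0.75 in lin-61 (change 1.26, adjusted p = 7.60e-05, edgeR). Every lin-61 preparation there lay below a ratio of 1, and above every N2 preparation, which was a condition for naming a locus. V 6835447 to 6836946 had 0.05 and 0.04 in N2 and 0.96, 1.32 and 1.13 in lin-61 (change 1.13, adjusted p = 0.009, edgeR). V 14685913 to 14688412 had -0.30 and -0.59 in N2 and 0.55, 0.60 and 0.58 in lin-61 (change 1.06, adjusted p = 0.000954, edgeR). The first 2 of these 3 places were higher still in met-2 nrde-3, at 1.44 ± 0.18 and 2.85 ± 0.49, and the third was not, at -0.10 ± 0.06.

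Of the region's windows 1688 were lower in lin-61 (8.52%, against 23.2% of all windows tested) and 1379 higher (6.96%, against 6.09%), 3067 in either direction beside 29.3% of all windows tested. The lower windows formed 140 loci of up to 34.5 kb, and 65% of them lay in the last 1.25 Mb. The higher windows formed 114 loci of up to 7 kb, and 99.1% of the windows lay in the first 9.4 Mb. Both shares depend on the division drawn on N2. Over all windows the median change was -0.13, and over the region it was 0.04. With library totals the median of all windows moved to 0.64 and the split of calls in the region turned from 45% higher to 97.4% higher, so both counts are relative to the scaling. Without N2 replicate 2 or 3 there were 1642 or 1318 calls in place of 3067. After division by the SD of each preparation, limma called 1684, and with the mean input of the library series edgeR called 4639, of which 2128 were higher and 2511 lower. The loss at the strongest island did not pass in the limma test. The gains at 6835447 and 14685913 did not pass without N2 replicate 3, and the former not without N2 replicate 2 either.

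In met-2 nrde-3 long stretches of the centre gained the mark, relative to other windows, where N2 and nrde-3 were near the level typical of the genome. The most extensive gain was at V 6116450 to 6171449, 55000 bp near the left bound. Its right end met a run left out for thin inputs in the lin-61 series, 6171450 to 6182949. The length is thus partly set by the choice of windows. Over the 55000 bp the ratio was 0.15 and 0.14 in N2 and 0.11, 0.22 and 0.10 in nrde-3. It was 2.51, 2.38 and 2.83 in met-2 nrde-3 (change against nrde-3 2.48, median adjusted p = 2.22e-10, edgeR). The scaled H3K9me3 count per window was 1428, 1214 and 1850 in met-2 nrde-3 and 209 to 228 in N2 and nrde-3, at inputs of 192 to 202. The groups were thus separated by more than 2 log2 units with even inputs. In lin-61 the same stretch stood at 0.20, 0.13 and 0.23, and in lin-61 met-2 at 1.5, 1.39 and 1.63.

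Other gains were of the same size over shorter lengths. At V 6911447 to 6924946 the ratio was -0.01, 0.09 and 0.10 in nrde-3 and 2.50, 2.28 and 2.83 in met-2 nrde-3 (change 2.53, adjusted p = 2.92e-10, edgeR). At V 7070446 to 7081945 it was -0.12, -0.03 and -0.12 in nrde-3 and 2.35, 2.10 and 2.65 in met-2 nrde-3 (change 2.52, adjusted p = 1.31e-09, edgeR). The 10 largest gains lay between 6116450 and 11319427, with changes of 2.26 to 2.53. The 200 kb from 6097001 formed the most changed bin, with a mean of 1.54 ± 0.16 in met-2 nrde-3, -0.01 ± 0.01 in nrde-3 and -0.06 ± 0.02 in N2. Of its windows 57.3% were marked in met-2 nrde-3.

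The gains against N2 were led by V 9630935 to 9632434, with -0.35 and -0.12 in N2 and 2.35, 1.92 and 2.65 in met-2 nrde-3 (change 2.62, adjusted p = 7.04e-10, edgeR). In lin-61 met-2 the same 1500 bp stood at 0.85, 0.80 and 0.88. Next came slightly longer versions of the stretches above, V 6115450 to 6171449 (change 2.47, adjusted p = 1.87e-09, edgeR) and V 6911447 to 6925946 (change 2.45, adjusted p = 3.81e-09, edgeR). The second of these had 0.01 and 0.11 in N2 and 2.43, 2.21 and 2.74 in met-2 nrde-3.

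Against nrde-3, 4963 windows of the region were higher in met-2 nrde-3 (25.1%), beside 11.3% of all windows tested and 22.4% in the centres of I to IV. The calls joined into 428 loci with a median length of 3.5 kb, 427 of them with preparations that did not overlap. Lower were 579 windows (2.92%, against 14.3% of all windows), which makes 5542 in either direction beside 25.7% of all windows tested. Of the higher windows 99.1% lay in the first 9.4 Mb, and of the lower 89.8% in the last 1.25 Mb. Bins with at least 1 gain numbered 52 of 54, with shares of up to 75.3%. The windows that gained had a median N2 ratio of -0.18, the same as the median of all windows of the region, and 2.42% of them were marked in N2. Against N2 the counts were 6271 higher (31.7%, against 14.6% of all windows tested) and 1515 lower (7.65%, against 24%), 7786 in either direction beside 38.6% of all windows tested. The 4963 gains ranged from 3961 to 5321 when any preparation was left out, while the 579 losses numbered 288 without nrde-3 replicate 2. With the mean input of the library series there were 7795 calls, 6864 of them higher and 931 lower. Against N2, 4350 gains and 835 losses were called without N2 replicate 3, and with library totals the split moved from 80.5% to 96.7% higher.

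Among the losses, V 15588909 to 15596408 was the largest against nrde-3 as well as against N2. Its ratio in met-2 nrde-3 was 0.20, 0.29 and 0.21, near the background, against 1.74, 2.59 and 1.23 in nrde-3 (change -1.75, adjusted p = 2.68e-05, edgeR). At V 15738409 to 15743908 the ratio was 2.07, 3.03 and 1.59 in nrde-3 and 0.75, 0.65 and 0.93 in met-2 nrde-3 (change -1.59, adjusted p = 0.000165, edgeR). At V 8695439 to 8697438, in the first 9.4 Mb, it was 1.07, 2.06 and 0.86 in nrde-3 and 0.33, 0.00 and 0.10 in met-2 nrde-3 (change -1.29, adjusted p = 0.00181, edgeR). The preparations at these 3 places did not overlap, which was a condition for naming a locus. Against N2 the change was -2.71 at the first (adjusted p = 1.20e-07, edgeR) and -2.42 at the second, where N2 stood at 3.04 and 3.30 (adjusted p = 1.16e-06, edgeR). The next loss against N2 was V 15579409 to 15581908, with 2.09 and 2.18 in N2 and 0.03, -0.09 and 0.19 in met-2 nrde-3 (change -2.14, adjusted p = 1.16e-08, edgeR).

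**Figure D4:**
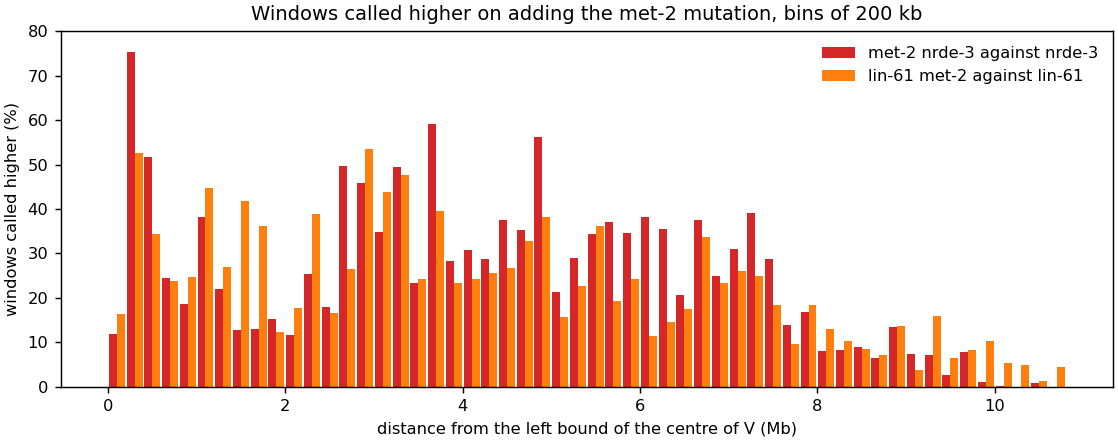
Share of evenly covered windows called higher by edgeR (adjusted p below 0.05) when the met-2 mutation is added, in bins of 200 kb along the centre of V. In the nrde-3 background the share reaches 75.3% in the second bin and in the lin-61 background 53.6%, and both fall toward the right bound.

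In lin-61 met-2 stretches of the centre also gained the mark, at lower ratios, and the 10 largest gains lay between 6121450 and 10575930. The first of these was at V 10321932 to 10326931, with 0.15, 0.09 and 0.25 in lin-61 and 1.90, 1.56 and 1.82 in lin-61 met-2 (change 1.63, median adjusted p = 0.000169, edgeR). At the same place met-2 nrde-3 stood at 3.08, 2.94 and 3.46 and N2 at -0.36 and -0.21. At V 6138950 to 6171449, inside the 55000 bp stretch above, lin-61 stood at 0.21, 0.17 and 0.22 and lin-61 met-2 at 1.75, 1.64 and 1.93 (change 1.61, adjusted p = 0.000138, edgeR). At V 6911447 to 6923946 lin-61 stood at 0.27, 0.33 and 0.40 and lin-61 met-2 at 1.99, 1.67 and 1.91 (change 1.55, adjusted p = 0.000217, edgeR). In all 3 places the single mutant was at 0.40 or less and the double mutant at 1.56 or more.

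Against N2 the largest gain of lin-61 met-2 was V 10381432 to 10382931, with -0.04 and -0.37 in N2 and 1.62, 1.49 and 1.76 in the double mutant (change 1.88, adjusted p = 1.74e-06, edgeR). V 7071946 to 7081945 had -0.14 and -0.18 in N2 and 1.75, 1.40 and 1.76 in lin-61 met-2 (change 1.85, adjusted p = 2.28e-06, edgeR). V 6911447 to 6924446 changed by 1.76 (adjusted p = 7.98e-06, edgeR). The last 2 overlap gains of met-2 nrde-3 named above. Losses against N2 were led by V 8695439 to 8698938, with 2.54 and 2.59 in N2 and 0.33, 0.25 and 0.26 in lin-61 met-2 (change -2.31, adjusted p = 7.33e-07, edgeR). V 15588909 to 15596408 changed by -2.29 (adjusted p = 2.44e-07, edgeR), and V 15597909 to 15599408 went from 1.82 and 1.93 to -0.44, -0.13 and -0.18 (change -2.12, adjusted p = 1.48e-07, edgeR). Loci were named only where the groups did not overlap, so their separation at these places is set by that choice.

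Against lin-61, 4507 windows were higher in lin-61 met-2 (22.7%), beside 7.83% of all windows tested and 8.54% in the centres of I to IV. Lower were 216 (1.09%, against 6.7% of all windows), which makes 4723 in either direction beside 14.5% of all windows tested. The higher windows joined into 447 loci with a median of 3 kb and a longest of 32.5 kb, 446 of them with preparations that did not overlap. The median change over the region was 0.30, over the centres of I to IV 0.08 and over all windows 0.01. Against N2 there were 5877 higher windows (29.7%, against 11.6%) and 1117 lower (5.64%, against 25.5%), 6994 in either direction beside 37.1% of all windows tested. Without lin-61 replicate 1 or 2 the gains against lin-61 numbered 2868 or 2965, and the losses 87 or 127. Without lin-61 replicate 3 there were 120 losses. Without N2 replicate 2 or 3 the gains against N2 numbered 3688 or 3333, and without replicate 3 the losses were 614. With the mean input of the library series there were 8996 calls against lin-61 in place of 4723, and 717 losses in place of 216. With library totals the split against N2 moved from 84% to 98.2% higher.

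The 8 loci that were lower in lin-61 met-2 than in lin-61 were short, 1.5 to 2.5 kb. The largest, V 8695939 to 8697938, had 1.09, 0.98 and 0.77 in lin-61 and -0.14, -0.09 and -0.05 in lin-61 met-2 (change -1.06, adjusted p = 0.0156, edgeR). It overlaps the loss at 8695439 in met-2 nrde-3, and N2 stood there at 2.39 and 2.50. The call was lost without lin-61 replicate 1. V 14198915 to 14200414 had 0.91, 0.99 and 0.86 in lin-61 and -0.10, 0.18 and 0.18 in lin-61 met-2 (change -0.83, adjusted p = 0.0371, edgeR), and did not pass without any one of the lin-61 preparations, without lin-61 met-2 replicate 1 or 3 or without met-2 nrde-3 replicate 1. V 15551910 to 15553409 had 0.51, 0.68 and 0.49 in lin-61 and -0.53, 0.01 and -0.12 in lin-61 met-2 (change -0.78, adjusted p = 0.037, edgeR), and did not pass without lin-61 replicate 2 or 3 or lin-61 met-2 replicate 1 or 3.

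The comparisons of each double mutant with its single mutant share no libraries. Of the windows that gained, 2376 were the same, which is 47.9% of the 4963 gains in the nrde-3 background and 52.7% of the 4507 in the lin-61 background. Of all windows of the region, 25.1% gained in the nrde-3 background and 22.7% in the lin-61 background. In the centres of I to IV the shared 2942 windows were 23.3% and 61% of the lists, where 22.4% and 8.54% of all windows gained. The windows higher in met-2 nrde-3 had a median change of 0.59 in the lin-61 background, where 89.8% of them changed upward, against a median of 0.30 and 77.6% for all windows of the region. In opposite directions, 17 windows gained in the nrde-3 background and were among the 216 lower in the lin-61 background. Another 14 were among the 579 lower in the nrde-3 background and gained in the lin-61 background. The 2376 shared gains had median ratios of -0.12 in N2, -0.03 in nrde-3, 0.03 in lin-61, 1.28 in met-2 nrde-3, with 0.94 in lin-61 met-2.

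The difference between the backgrounds was tested as an interaction, that is, the effect of the added met-2 mutation with nrde-3 less its effect with lin-61. Called positive were 1531 windows of the region (7.73%, against 5.04% of all windows tested and 11.6% in the centres of I to IV). Called negative were 638 (3.22%, against 5.62% and 0.671%). The 2169 calls in all were 10.9% of the region, near the 10.7% of all windows tested and below the 12.2% in the centres of I to IV. Called or not, 47.3% of the region's windows had an interaction above 0, with a median of -0.03. The mean level of the whole region gave an interaction of 0.044. The largest positive interaction was at V 6829447 to 6832446, where the ratio went from -0.10, 0.04 and 0.17 in nrde-3 to 2.91, 2.47 and 3.43 in met-2 nrde-3. There it went from 0.61, 0.74 and 0.86 in lin-61 to 1.57, 1.43 and 1.65 in lin-61 met-2 (interaction 2.16, adjusted p = 0.000674, edgeR). At V 10020433 to 10026432 it went from -0.24, -0.21 and -0.01 to 1.75, 1.58 and 1.95 in the nrde-3 background. In the lin-61 background it went from 0.61, 0.46 and 0.76 to 0.22, 0.56 and 0.51 (interaction 2.13, adjusted p = 4.61e-05, edgeR). The groups overlapped in the lin-61 background, and the level in lin-61 was already above that of N2, at -0.40 ± 0.06. At V 7826943 to 7832942 the ratio went from -0.11, 0.04 and -0.08 to 2.21, 1.95 and 2.46 in the nrde-3 background and from 0.68, 0.57 and 0.71 to 0.74, 0.89 and 0.93 in the lin-61 background (interaction 2.10, adjusted p = 8.33e-05, edgeR).

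Of the 638 negative interaction windows 52.8% lay in the first 9.4 Mb and 47.2% in the last 1.25 Mb, where they were 13.1% of the windows against 1.92% before. The 3 loci with the largest negative interaction lay in the last 1.25 Mb, with the first at V 15588909 to 15596408 (interaction -1.92, adjusted p = 0.00336, edgeR). There met-2 nrde-3 was lower than nrde-3, while lin-61, at 0.67, 0.46 and 0.27, and lin-61 met-2, at 0.66, 0.59 and 0.65, overlapped. At V 15738409 to 15743908, over the 9 of 11 windows called for the interaction, nrde-3 stood at 2.07, 3.02 and 1.57, met-2 nrde-3 at 0.74, 0.65 and 0.96, lin-61 at 0.95, 1.13 and 0.82, and lin-61 met-2 at 1.27, 1.06 and 1.20 (interaction -1.79, adjusted p = 0.0132, edgeR). V 16433406 to 16434905 gave -1.58 (adjusted p = 0.0263, edgeR). Neither of these 2 passed without lin-61 replicate 3, and the second not without met-2 nrde-3 replicate 1 or 2 either. Interactions compare a change in one library series with a change in the other. The SD of the ratio over windows was 0.418 to 0.451 in lin-61 and 0.507 to 0.667 in lin-61 met-2. For nrde-3 it was 0.28 to 0.519, and for met-2 nrde-3 0.635 to 0.788. With every preparation scaled to the same SD, limma called 2862 interaction windows, 1984 of them positive and 878 negative. Without met-2 nrde-3 replicate 3 there were 1437 interaction calls in place of 2169, and with the mean input of the library series 4945, of which 59.2% were positive in place of 70.6%. With library totals the positive share of the calls moved from 70.6% to 84.4%. The 638 negative calls numbered 320 and 390 without met-2 nrde-3 replicate 1 or 3 and 364 without lin-61 replicate 3.

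**Figure D5:**
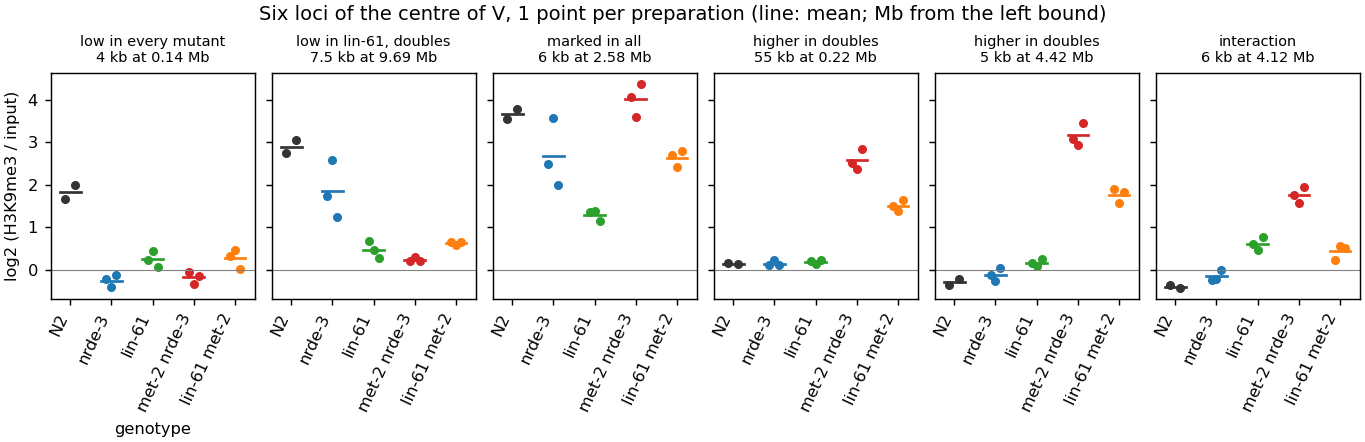
Log2 ratio of H3K9me3 over input at 6 loci of the centre of V, 1 point per preparation with the line at the mean; panel titles give length and distance from the left bound. The first panel shows a domain at 1.66 and 2.00 in N2 and at 0.46 or less in every mutant preparation, and the fourth the 55000 bp stretch at 2.38 to 2.83 in met-2 nrde-3.

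The 1494 windows of the region left out for uneven input were mostly thin in the lin-61 series, where 1483 had lower inputs than in the series with N2 and 870 had under 0.25 of their level. They formed 165 runs of at least 3 windows, up to 85.5 kb long. The 243 windows without any count in the lin-61 series all held counts in the other. In the series with N2 these 1494 windows carried more of the mark than the rest of the region, at 1.12 ± 0.08 in N2 (n = 2). For nrde-3 the level was 0.69 ± 0.30 and for met-2 nrde-3 0.89 ± 0.13 (n = 3 each). At 1 or more stood 641, 418 and 423 of them in the same order. The levels given above for the 19811 windows leave out this part of the mark. Domains, islands and loci were joined across at most 1 other window, so their lengths can end at such runs.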

How the data were processed

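Chromatin of early embryos was immunoprecipitated, amplified into libraries and read from both ends, per the labels' protocols. The deposited table gives raw counts for adjoining windows of 500 bp with a column for each library. The values are whole numbers with a different total in each of the 30 columns. Positions are those of the table, 1-based, on ce10, per the submitters' processing notes. The aligner, the counting tool and the treatment of duplicates and multiply mapped reads are not given in the sources used here. Each of the 60 records is 1 of 2 runs of a library, and the table holds the runs of a library in 1 column. All 30 column totals were even numbers.

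The region, the windows, the division of the region and the omission of N2 replicate 1 were chosen with earlier results of these data known. edgeR 4.0.16 in R 4.3.3 (quasi-likelihood test) was run on 28 libraries and the 184418 evenly covered windows of the genome, with 1 coefficient per genotype and library type and TMM factors of 0.581 to 1.14. Each contrast is the difference between genotypes of H3K9me3 minus input. Benjamini-Hochberg adjustment covered all windows tested, with a threshold of 0.05, and only windows of the centre of V are printed. The dispersion was 0.0153. In simulated counts for met-2 nrde-3 against nrde-3 over 184418 windows, 64 of 100 changes of 2-fold and 100 of 100 of 4-fold were recovered. There were 8 false calls. The simulation used that dispersion for every window and changed no other windows. The data had many more changes and uneven preparations, so recovery in the data was not measured.

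A locus joins called windows of 1 direction across at most 1 other window and has at least 3 called windows. Its values are means over its called windows, so a span can differ slightly between comparisons. Of the loci whose groups of preparations do not overlap, the 10 with the largest mean change per comparison and direction were named by range and the first 3 in full. The adjusted p of a locus is the median over its windows. Islands were named by N2 level and by length, at most 5 of each. The islands at 10572431 and 10717930 and the bin at 6097001 were singled out after their values were seen. Levels were compared by exact permutation tests (scipy 1.17.1).

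Same-numbered preparations of different genotypes did not deviate together (r = -0.23 to 0.15 over 26 pairs), so no block was used. The labels' protocols name 2 replicates in one place and 3 in another and call them independent. The libraries were amplified and carried no molecular identifiers, and the treatment of duplicates is not given. Depth can thus overstate the number of independent molecules. Gene names and sequences are not given, because the annotation at hand is of another build than the table.

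The alternatives were library totals or DESeq2 1.42.0 size factors, DESeq2's Wald test, limma 3.58.1 on log2 ratios with and without division by the SD, all windows, a low-count filter, windows of 2000 bp, a threshold of 0.01, replicate blocks, all 30 libraries, the mean input of the library series, pseudocounts of 1 and 32, medians, other bounds for the centres of I to IV, other levels for a marked window, and fits without 1 preparation at a time. The region without its last 1.25 Mb was added after seeing the data.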

Additional observations from a re-analysis of the deposited data

Results flagged for a closer look

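An interaction of the added met-2 mutation with the background, nrde-3 or lin-61, was called by edgeR in 2169 windows of the centre of V. These were 10.9% of the region's windows, near the 10.7% of all windows tested and below the 12.2% in the centres of I to IV. The backgrounds came from different library series. Positive interactions led at V 6829447 to 6832446 (2.16), V 10020433 to 10026432 (2.13) and V 7826943 to 7832942 (2.10), where met-2 nrde-3 gained more than lin-61 met-2. At the third of these nrde-3 stood at -0.05 ± 0.08 and met-2 nrde-3 at 2.21 ± 0.26, and lin-61 at 0.65 ± 0.08 and lin-61 met-2 at 0.85 ± 0.10 (SD, n = 3 each).

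Negative interactions led at V 15588909 to 15596408 (-1.92), V 15738409 to 15743908 (-1.79) and V 16433406 to 16434905 (-1.58). At the second of these, over the 9 of its 11 windows called for the interaction, nrde-3 stood at 2.22 ± 0.74 and met-2 nrde-3 at 0.78 ± 0.16, and lin-61 at 0.97 ± 0.15 and lin-61 met-2 at 1.18 ± 0.10. Its call did not hold without lin-61 replicate 3. The call at V 16433406 to 16434905 did not hold without met-2 nrde-3 replicate 1 or 2 or lin-61 replicate 3.

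The library labelled N2 input 1, which enters no comparison, stood at 3.21 times the region's median window at the islands of N2, above every other input (0.882 to 0.96).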

How the results depend on the processing

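The higher level of the double mutants over the centre of V, against N2 and against their single mutants, kept its direction under every alternative run, while the small difference between lin-61 and N2 did not. Counts of called windows follow the scaling, the window size and the threshold, and those against N2 rest on 2 preparations. Depth limits the single window, so counts describe what was detectable at this depth. The cause was not tested for the shifts below, except that a stricter threshold and a smaller region leave fewer windows by construction.

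Calls against N2 for nrde-3, lin-61, met-2 nrde-3 and then lin-61 met-2 numbered 175, 3067, 7786 and 6994. They were 6197, 14071, 15803 and 17061 with library totals. With windows of 2000 bp, counted as the 500 bp windows they cover, they were 1363, 5351, 12732 and 11886. On all 30 libraries as labelled they were 0, 17, 4466 and 3346. For the 0, edgeR gave 1004 windows at an unadjusted p under 0.05, and on 28 libraries limma called 158 and DESeq2's Wald test 523. The first 2 counts were 7 and 1684 with limma after division by the SD, 22 and 1461 at an adjusted p below 0.01, 1568 and 4639 with the mean input of the series, and 73 and 1957 without the last 1.25 Mb, an alternative chosen after seeing the data. At 0.01 lin-61 met-2 had 4366.

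Calls for met-2 nrde-3 against nrde-3, lin-61 met-2 against lin-61 and the interaction were 5542, 4723 and 2169, with 2376 shared gains. Windows of 2000 bp gave 8525, 8996 and 4885, with 4785 shared. For the last 3 of these quantities the threshold of 0.01 gave 2320, 953 and 1359, all 30 libraries 2501, 538 and 1321, and the mean input 8996, 4945 and 4350.

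The lin-61 level minus that of N2, -0.016, became 0.714 with library totals, 0.012 on all 30 libraries, 0.072 without the last 1.25 Mb and 0.101 as a median over windows, which also turned the interaction of levels to -0.056. The excess over the centres of I to IV, lower in nrde-3 and met-2 nrde-3 than in N2, became higher by 0.03 and 0.036 on all 30 libraries, and by 0.088 in met-2 nrde-3 without the last 1.25 Mb. For met-2 nrde-3 relative to nrde-3 it turned to -0.053 with middle-third centres. On all 30 libraries 3 loci turned, V 16535905 to 16538404 in nrde-3 (0.18) and V 8479440 to 8485439 and V 14760913 to 14765912 in lin-61 (0.09 and 0.47).

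Marked windows in N2, nrde-3, lin-61, met-2 nrde-3 and then lin-61 met-2 numbered 2055, 1102, 1494, 4780 and 4731 at a ratio of at least 0.5 and 336, 118, 0, 881 and 187 at 2. In N2 and nrde-3 they were 382 and 272 with library totals, and 1567 and 835 over all windows, where lin-61 had 403. N2 had 286 on all 30 libraries.

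Without 1 preparation at a time, calls against N2 ranged from 9 to 1251 for nrde-3, 1318 to 3642 for lin-61, 5185 to 8469 for met-2 nrde-3 and 3947 to 7147 for lin-61 met-2. They ranged from 4387 to 5992 against nrde-3, 2955 to 5177 against lin-61 and 1437 to 2501 for the interaction. The excess of met-2 nrde-3 over nrde-3 ranged from -0.011 to 0.03 and was below 0 without met-2 nrde-3 replicate 3 or nrde-3 replicate 1 or 3.

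Replicate numbers did not pair the preparations. A replicate block by number gave 157, 2961, 7706 and 6898 calls against N2 and 5496, 4546 and 2036 for the other 3 contrasts, and a block by preparation 208, 2698, 7363, 6372, 5255, 3976 and 1729, none over 1.5 times from the count without a block.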
